A study of Penicillium oxalicum with 18 samples.

Results

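Amy15A (PDE_09417) and Amy13A (PDE_01201) are a glucoamylase and an alpha-amylase of the filamentous fungus Penicillium oxalicum, named here as the literature on strain 114-2 names these IDs. They are 2 of the 9176 gene models in the expression table and were chosen by ID, with earlier results of these data known. The table itself pairs no ID with a gene name, and none of its IDs matched the RefSeq gene table of another strain, so no other gene is named and no genome position is given. Both amylases passed the filter on low values that left 8455 gene models for testing.

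Alpha-amylases cut the internal alpha-1,4 bonds of starch and release shorter chains, and glucoamylases remove glucose from the ends of those chains. Filamentous fungi secrete both enzymes and take up the sugars that are released. In Aspergillus, starch and maltose induce such genes through the transcription factor AmyR, and glucose represses them through CreA. Cereal bran carries residual starch, whereas glucose and N-acetylglucosamine (GlcNAc), the monomer of chitin, are single sugars.

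The study set wild-type strain 114-2 beside a vib1 deletion strain, hereafter the mutant. Vib1 is a transcription factor known from Neurospora for roles in vegetative incompatibility and enzyme secretion, and the study asked which transcripts its loss alters. All mycelia were germinated and grown for 24 h at 30 °C with 2% glucose, and were then transferred for 24 h to modified Mendal's medium with 2% glucose, with 2% GlcNAc (labelled N-GlcNAc), or with 1% bran and 1% microcrystalline cellulose (the bran medium). Each of the 6 groups of strain and medium had 3 libraries, 18 in all. The labels do not say whether the 3 came from separate cultures or whether the mutant is 1 transformant. The p-values therefore reflect the spread among these libraries alone, and that spread may be technical.

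The values are the authors' FPKM, that is, fragments mapped to a gene model relative to its length and to all mapped fragments of the library, from libraries of short 3' tags. A tag library samples few sites per transcript, so levels set beside those of other genes, ranks and shares are less certain than changes of the same gene between libraries. FPKM summed to between 915800 and 1119000 per library, and read depth is unknown. No ID could be tied to vib1, so the strain labels have no check from the targeted gene. Differences are given on the log2(FPKM + 1) scale with their standard error (SE), from one limma fit to all 18 libraries, and p-values are Benjamini-Hochberg adjusted over the 8455 gene models. A difference was called at an adjusted p under 0.05. In bulk mycelium, a smaller share of hyphae with a transcript and less transcript per hypha cannot be told apart.

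Amy15A, the glucoamylase transcript, had the wider range of the pair. In glucose it stood at 843, 895 and 638 FPKM in the wild-type strain, and the mutant gave 6549, 7144 and 9227 FPKM. Every mutant library was thus far above every wild-type library, and in the mutant Amy15A ranked between place 4 and place 9 of all gene models by FPKM, against places 187 to 277 in wild type. In the bran medium it stood at 1936, 2014 and 1228 FPKM in the wild-type strain, and the mutant gave 4921, 4467 and 5074 FPKM. The groups again did not overlap, and wild-type replicate 3 was the lowest library of this medium. In GlcNAc the wild-type values were 10.9, 10.5 and 10.8 FPKM and the mutant values were 84.5, 70.7 and 52.9 FPKM. Both strains were at their lowest on this sugar, yet the mutant libraries stayed above the wild-type libraries.

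Ordered by mean level, Amy15A was highest in the mutant in glucose (7640 ± 1406 FPKM, SD, n = 3). It was followed by the mutant in the bran medium (4821 ± 315), wild type in the bran medium (1726 ± 433) and wild type in glucose (792 ± 135). The mutant on GlcNAc (69.4 ± 15.8) and wild type in GlcNAc (10.7 ± 0.231) came last. No neighbours in this order overlapped, and the highest mean was 712 times the lowest. As a share of a library's summed FPKM, Amy15A made up 0.824% ± 0.163 in the mutant in glucose and 0.0778% ± 0.0140 in wild type in glucose.

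Amy13A, the alpha-amylase transcript, varied over a smaller range. In glucose it stood at 356, 398 and 410.3 FPKM in the wild-type strain, and the mutant gave 480.4, 615 and 708 FPKM. The groups did not overlap, but the lowest mutant library lay close to the highest wild-type library. In the bran medium the wild-type values were 237, 262 and 143 FPKM and the mutant values were 489.6, 397 and 509.7 FPKM. Wild-type replicate 3 was again the lowest library of its medium. In GlcNAc wild type gave 51.7, 56.2 and 46.8 FPKM and the mutant 189, 148 and 107 FPKM. As for Amy15A, GlcNAc gave the lowest levels in either strain, and the mutant libraries were all above the wild-type libraries.

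By mean level, Amy13A was also highest in the mutant in glucose (601 ± 114 FPKM, SD, n = 3) and lowest in wild type in GlcNAc (51.55 ± 4.68), a ratio of 11.7. Between them came the mutant in the bran medium (465 ± 60.2), wild type in glucose (388 ± 28.5), wild type in the bran medium (214 ± 63.0) and the mutant in GlcNAc (148 ± 41.3). Here several neighbours overlapped: the mutant in glucose with the mutant in the bran medium, the latter with wild type in glucose, and wild type in the bran medium with the mutant in GlcNAc. The order of the middle groups therefore also differed between the genes, since wild type stood higher in the bran medium than in glucose for Amy15A and lower for Amy13A.

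**Figure D1:**
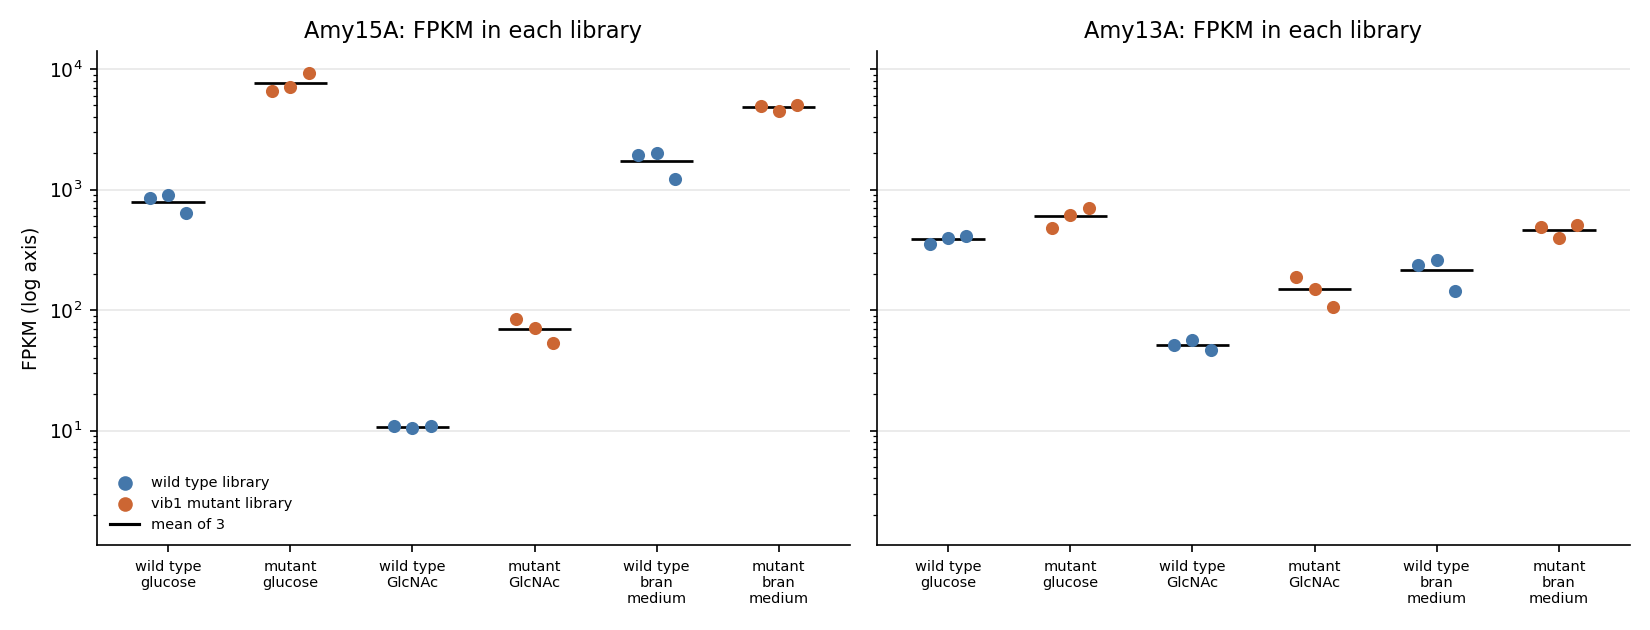
FPKM of Amy15A (left) and Amy13A (right) in each of the 18 libraries, on a shared log axis, by strain and medium; points are libraries and lines are means of 3. Mutant libraries lie above wild-type libraries in every medium, and Amy15A spans means from 10.7 to 7640 FPKM while Amy13A spans 51.55 to 601 FPKM.

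Loss of vib1 went with higher levels of both transcripts in all 3 media. Every mutant library exceeded every wild-type library of its medium for both genes, a pattern shown by 6.74% of all gene models tested. Both were called higher in each medium, as were 347 gene models, or 4.1% of those tested.

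In glucose, Amy15A was 9.65 times as high by mean FPKM in the mutant, a log2 difference of 3.27 ± 0.200 (SE, adjusted p = 2.26e-09). Only 81 of the 8455 gene models had a larger positive difference in this comparison, in which 42.1% were called higher. Amy13A was 1.55 times as high (0.61 ± 0.225, adjusted p = 0.0265), and 24.9% of gene models had a larger positive difference. The median gene model lay 0.18 log2 units higher in the mutant in glucose. After rescaling all libraries to the same total, the differences were 3.40 for Amy15A and 0.75 for Amy13A (limma adjusted p = 0.00776 for Amy13A). Quantile normalization gave 3.26 and 0.88 (adjusted p = 0.00432 for Amy13A). After median-ratio rescaling of the libraries, the differences were 3.06 for Amy15A and 0.41 for Amy13A, and Amy13A was no longer called (adjusted p = 0.132). The call of Amy13A was also lost without wild-type glucose replicate 1 (0.55), mutant glucose replicate 2 (0.59) or mutant glucose replicate 3 (0.49), with adjusted p-values of 0.0797, 0.0658 and 0.105.

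In GlcNAc, where both transcripts were lowest, Amy15A was 6.47 times as high in the mutant (log2 difference 2.56 ± 0.200 SE, adjusted p = 1.93e-08). Amy13A was 2.87 times as high (1.47 ± 0.225, adjusted p = 2.78e-05). Larger positive differences were found for 2.5% and 10.5% of gene models, and 44.8% were called higher. The median gene model lay 0.20 log2 units higher in the mutant, and after median-ratio rescaling the differences were 2.32 and 1.23. Summed FPKM was lower in the mutant here, as it was in glucose. After rescaling all libraries to the same total, the differences in GlcNAc were 2.78 and 1.70.

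In the bran medium, the medium with polysaccharides, Amy15A was 2.79 times as high in the mutant (log2 difference 1.51 ± 0.200 SE, adjusted p = 6.88e-05) and Amy13A 2.17 times (1.16 ± 0.225, adjusted p = 0.00171). Of all gene models tested, 13.2% were called higher. Larger positive differences than that of Amy15A were found for 1.3% of gene models, and than that of Amy13A for 2.33%. Without wild-type replicate 3, the low library of this medium, the log2 differences were 1.29 and 0.89. That library had the widest spread around its group mean over all gene models, with an SD of 0.384 log2 units against 0.211 to 0.358 in the other libraries.

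Averaged over the 3 media, Amy15A was higher in the mutant by 2.45 ± 0.116 log2 units (SE, adjusted p = 8.72e-11), and Amy13A by 1.08 ± 0.130 (adjusted p = 2.53e-06), where 46.4% of gene models were called higher. The difference of Amy15A was exceeded by 32 gene models, and that of Amy13A by 402. The median gene model was higher by 0.14, and after median-ratio rescaling the averages were 2.30 and 0.93.

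**Figure D2:**
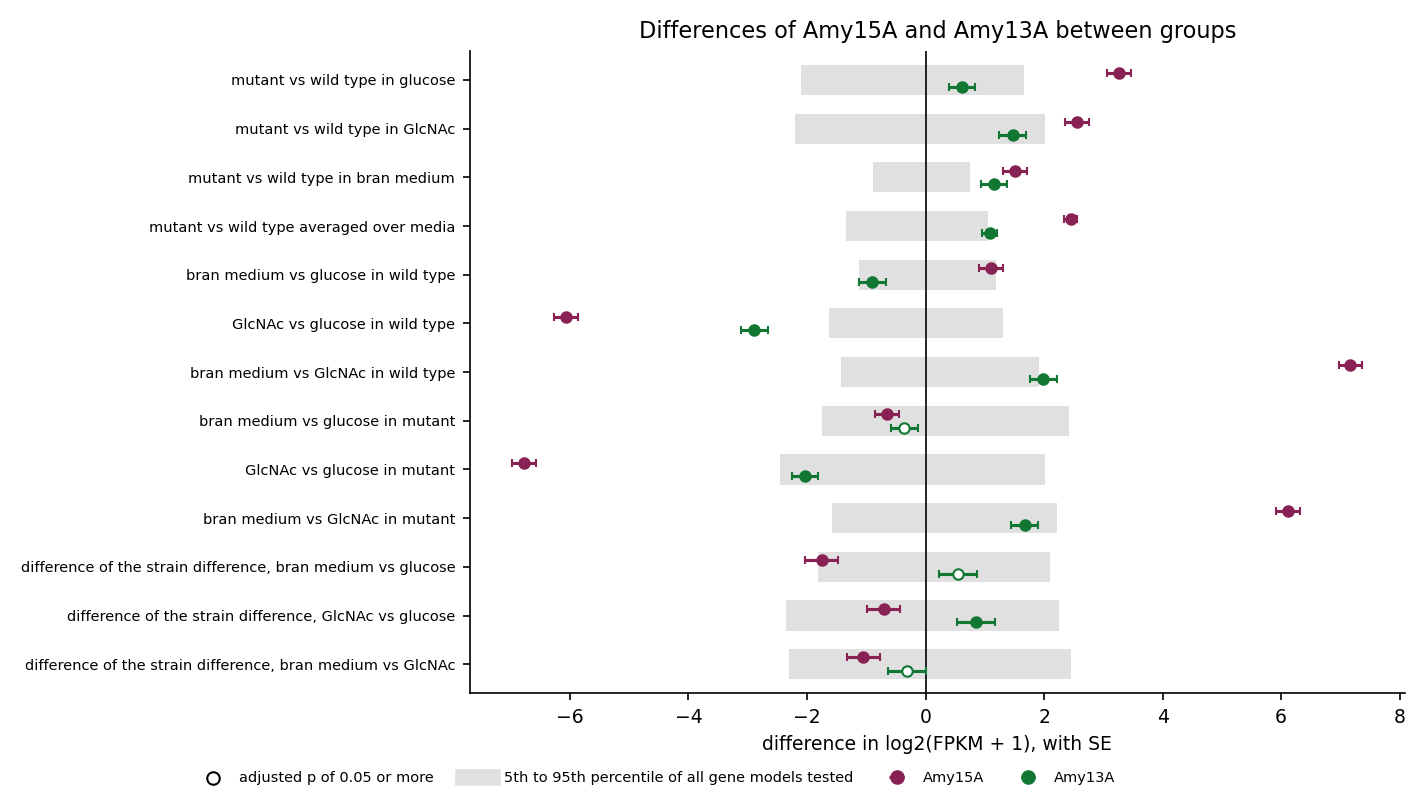
Differences in log2(FPKM + 1) of Amy15A and Amy13A for each comparison, with SE; open points had an adjusted p of 0.05 or more and grey bars span the 5th to 95th percentile of all 8455 gene models tested. The strain differences of Amy15A (3.27, 2.56 and 1.51) lie beyond the grey bars, and that of Amy13A lies beyond it in the bran medium (1.16) and inside it in glucose (0.61) and GlcNAc (1.47).

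The size of the strain difference depended on the medium for Amy15A. It was smallest in the bran medium, where it differed from that in glucose by -1.75 ± 0.283 log2 units (SE, adjusted p = 0.000115) and from that in GlcNAc by -1.05 ± 0.283 (adjusted p = 0.00433). In these tests of the difference of differences, 34.1% and 40.3% of gene models were called in the same direction. Over all gene models, the 5th to 95th percentile of the strain difference was -0.89 to 0.75 in the bran medium. It was -2.09 to 1.66 in glucose and -2.20 to 2.01 in GlcNAc. Strain differences above that of Amy15A were found for 0.958% of gene models in glucose, 2.5% in GlcNAc and 1.3% in the bran medium. The strain difference of Amy15A in GlcNAc differed from that in glucose by -0.71 ± 0.283 (adjusted p = 0.0431, with 27% called lower), and this call did not hold without single libraries. It was lost without wild-type glucose replicate 3 (-0.56), wild-type GlcNAc replicates 1, 2 or 3 (-0.70, -0.72 and -0.70), mutant glucose replicates 2 or 3 (-0.75 and -0.56), mutant GlcNAc replicates 2 or 3 (-0.73 and -0.53), or any 1 of the 3 mutant libraries of the bran medium (-0.71 each).

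For Amy13A the order was another one. Its strain difference was larger in GlcNAc than in glucose by 0.86 ± 0.319 log2 units (SE, adjusted p = 0.0313), where 32.3% of gene models were called higher, and this call did not hold without single libraries either. It was lost without wild-type glucose replicates 2 or 3 (0.84 and 0.82), wild-type GlcNAc replicates 1 or 3 (0.86 and 0.79), mutant glucose replicate 1 (0.70), or mutant GlcNAc replicates 1 or 2 (0.66 and 0.84). The bran medium against glucose gave 0.54 (95% confidence interval from -0.14 to 1.22, adjusted p = 0.172). The bran medium against GlcNAc gave -0.32 (from -0.997 to 0.366, adjusted p = 0.399). These intervals leave room for a difference in either direction.

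GlcNAc went with the lowest levels of both amylase transcripts in both strains. The comparisons between media within a strain share libraries, so each is given by its own values. In wild type, Amy15A was 73.9 times lower by mean FPKM in GlcNAc than in glucose (log2 difference -6.07 ± 0.200 SE, adjusted p = 7.31e-12), and only 4 of 8455 gene models had a larger negative difference. Amy13A was 7.53 times lower (-2.89 ± 0.225, adjusted p = 6.72e-08), and 126 gene models had a larger negative difference. In this comparison 26% of gene models were called lower.

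The mutant showed the same direction. There Amy15A was 110.1 times lower in GlcNAc than in glucose (log2 difference -6.77 ± 0.200 SE, adjusted p = 3.54e-13), and Amy13A was 4.06 times lower (-2.03 ± 0.225, adjusted p = 1.2e-06), with 27% of gene models called lower. Larger negative differences were found for 30 and 553 gene models. So the mutant in GlcNAc, although 6.47 times above wild type in GlcNAc for Amy15A, remained below wild type in glucose.

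The bran medium against GlcNAc gave the largest contrast for Amy15A in wild type. Amy15A was 161 times higher in the bran medium (log2 difference 7.17 ± 0.200 SE, adjusted p = 4.24e-13), a difference exceeded by 7 gene models, and Amy13A was 4.15 times higher (1.99 ± 0.225, adjusted p = 2.36e-06). In the mutant the ratios were 69.5 (6.12 ± 0.200, adjusted p = 3.8e-12) and 3.14 (1.67 ± 0.225, adjusted p = 9.9e-06). Gene models called higher made up 33.2% in wild type and 27.8% in the mutant.

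Between the bran medium and glucose the amylases moved in opposite directions in wild type. Amy15A was 2.18 times higher in the bran medium (log2 difference 1.10 ± 0.200 SE, adjusted p = 0.000369), where 32.4% of gene models were called higher. Amy13A was 1.81 times lower (-0.90 ± 0.225, adjusted p = 0.00417), where 15.9% were called lower. Without wild-type bran replicate 3, the differences were 1.33 and -0.63, both still called.

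In the mutant Amy15A was instead 1.58 times lower in the bran medium than in glucose (log2 difference -0.65 ± 0.200 SE, adjusted p = 0.0105), where 34.1% of gene models were called lower. Without mutant glucose replicate 3, the highest library for Amy15A, this difference was -0.51 and was not called (adjusted p = 0.0543). Amy13A differed by -0.36 (95% confidence interval from -0.84 to 0.12, adjusted p = 0.181). A call higher in wild type and lower in the mutant, as for Amy15A, was found for 650 gene models (7.69%). The glucoamylase transcript was thus highest in the bran medium in wild type and highest in glucose in the mutant.

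The ratio of the transcripts within a library shows how far they moved apart. FPKM is scaled by gene length, but a tag library samples few sites per transcript, so the ratio between genes is less certain than its change between libraries. In wild type the FPKM of Amy15A divided by that of Amy13A was 2.37, 2.25 and 1.56 in glucose, 0.211, 0.186 and 0.231 in GlcNAc, and 8.16, 7.68 and 8.60 in the bran medium. In the mutant it was 13.6, 11.6 and 13.04 in glucose, 0.446, 0.477 and 0.495 in GlcNAc, and 10.1, 11.3 and 9.95 in the bran medium. Amy15A was thus the higher transcript in glucose and in the bran medium, and Amy13A the higher one in GlcNAc, in both strains.

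Within each medium, all 3 mutant libraries had a higher ratio than all 3 wild-type libraries. The mean log2 ratio, from values with 1 FPKM added, was higher in the mutant by 2.65 in glucose, 1.09 in GlcNAc and 0.36 in the bran medium. With 3 libraries against 3, the smallest two-sided p an exact permutation test can give is 0.1, and each of the 3 comparisons gave that value. Whether the change of the ratio differed between media was not tested. Averaged over the media, the log2 ratio was higher by 1.37, and an exact permutation test within media, two-sided, gave p = 0.00025, the smallest it can give (0.00175 adjusted over the 7 ratio comparisons). Amy15A therefore rose by more than Amy13A in the mutant, averaged over media.

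Between media, averaged over the strains, the log2 ratio differed by -3.96 in GlcNAc against glucose (exact permutation test within strains, two-sided, p = 0.005, the smallest it can give; adjusted p = 0.0117) and by 4.81 in the bran medium against GlcNAc (exact permutation p = 0.005, adjusted p = 0.0117). Between the bran medium and glucose the average difference was 0.86 (exact permutation p = 0.1, adjusted p = 0.1). The strains went opposite ways in that comparison: the mean ratio went from 2.06 in glucose to 8.15 in the bran medium in wild type, and from 12.8 to 10.4 in the mutant.

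**Figure D3:**
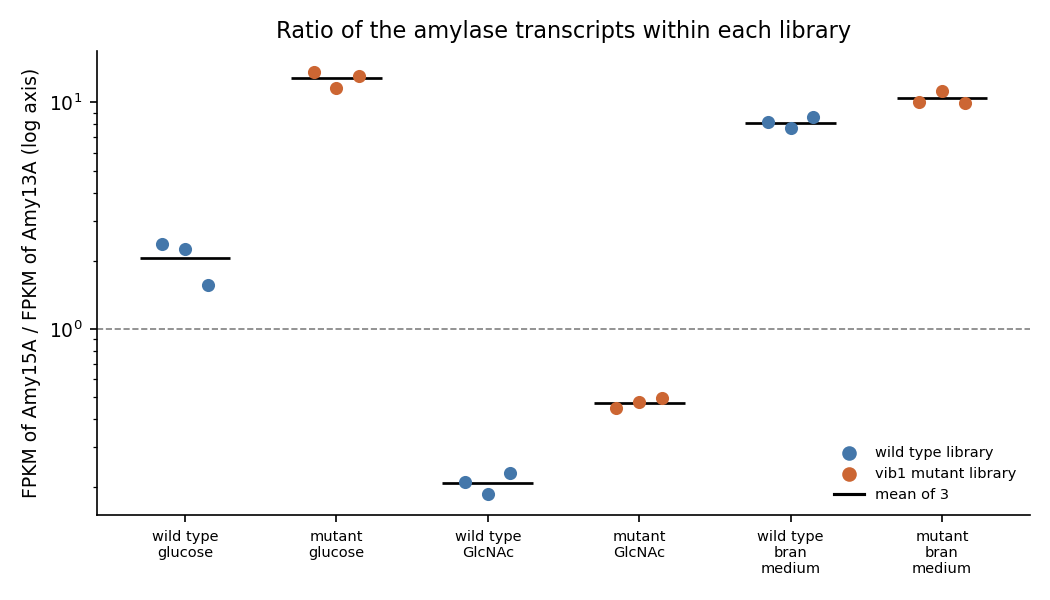
FPKM of Amy15A divided by FPKM of Amy13A within each library, on a log axis, by strain and medium; points are libraries, lines are means of 3 and the dashed line marks equal FPKM. The GlcNAc libraries lie between 0.186 and 0.495, and all others between 1.56 and 13.6.

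Within groups, the spread of the amylases was often wider than that of other transcripts. The coefficient of variation of Amy15A was 17.1% in wild type in glucose and 25.1% in wild type in the bran medium, where the median over gene models with a group mean of at least 10 FPKM was 7.37% and 10.8%. It was 18.4% in the mutant in glucose and 22.8% in the mutant in GlcNAc, against medians of 10.3% and 6.79%. It was below the median in the other groups, at 2.15% in wild type in GlcNAc (median 5.04%) and 6.54% in the mutant in the bran medium (median 7.33%). For Amy13A it ranged from 7.35% in wild type in glucose to 29.4% in wild type in the bran medium.

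In most libraries both amylases deviated from their group means in the same direction. The deviations had the same sign in 13 of 18 libraries. Other pairs of gene models were not counted, so this count is not shown to be a trait of the amylases. The largest joint deviation was in wild-type bran replicate 3, at -0.46 log2 units for Amy15A and -0.53 for Amy13A. Mutant GlcNAc replicate 3 followed, at -0.36 and -0.43. The signs differed in 2 wild-type libraries in glucose (replicates 1 and 3), 2 wild-type libraries in GlcNAc (replicates 2 and 3) and 1 mutant library in glucose (replicate 2). Among these, wild-type glucose replicate 3 deviated by -0.30 log2 units for Amy15A and by 0.082 for Amy13A. The 3 libraries of a group share their medium and strain and their deviations sum to 0, so no correlation is given.

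**Figure D4:**
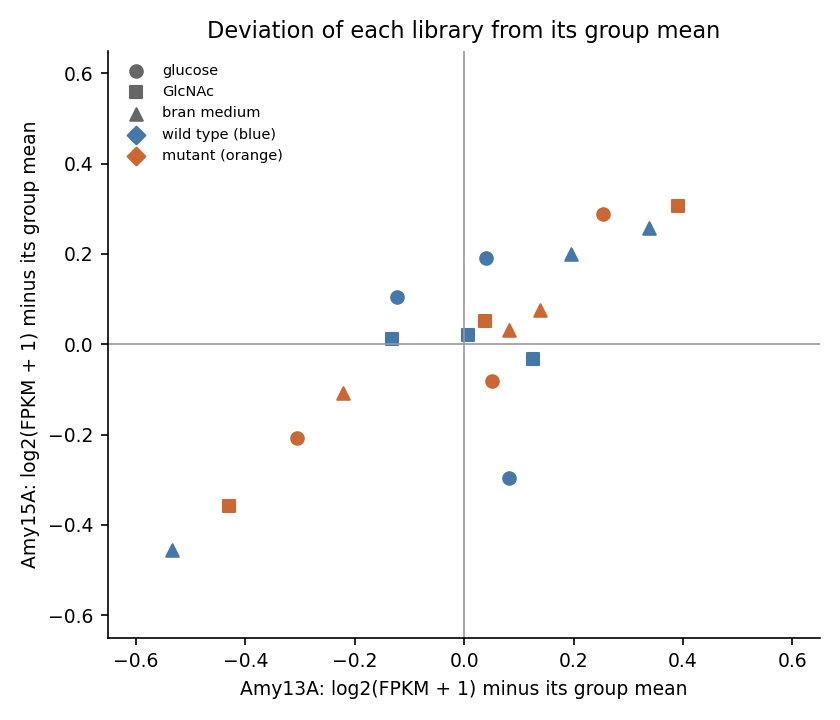
Deviation of each of the 18 libraries from its group mean in log2(FPKM + 1), Amy13A on the horizontal and Amy15A on the vertical axis, with colour for strain and symbol for medium. The lowest point is wild-type bran replicate 3 (-0.53 and -0.46), and 13 of 18 points lie in the quadrants where both deviations have the same sign.

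Over the 18 libraries, the Pearson correlation of the log2(FPKM + 1) values of Amy15A and Amy13A was 0.928. This is a description, since the libraries fall into 6 groups and share strain and medium. Among 7331 gene models that averaged 10 FPKM or more in some group, Amy13A was in place 55 by likeness to Amy15A, and Amy15A in place 13 by likeness to Amy13A. A correlation of at least 0.9 was reached by 93 gene models with Amy15A and by 45 with Amy13A.

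The gene models most like Amy15A were PDE_02454 (r = 0.984) and PDE_09377 (r = 0.982). Since the likeness was taken over the same 18 libraries, the levels of such gene models are a description, with no test. PDE_02454 averaged 206 ± 5.92 FPKM (SD, n = 3) in wild type and 714 ± 67.1 in the mutant in glucose, and 8.91 ± 0.799 and 25.8 ± 2.39 in GlcNAc. In the bran medium wild type had 478 ± 85.5 and the mutant 430.4 ± 22.2, so the mutant mean was not above the wild-type mean there. PDE_09377 was the more abundant of the pair, with 3456 ± 169 and 15460 ± 1532 FPKM in wild type and the mutant in glucose. It averaged 456 ± 12.1 and 624 ± 21.7 FPKM in GlcNAc, and 6423 ± 2295 and 8768 ± 934 FPKM in the bran medium, where its libraries ranged from 3805 to 8089 FPKM in wild type and from 7800 to 9664 FPKM in the mutant.

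The gene models most like Amy13A were PDE_09315 (r = 0.976) and PDE_05002 (r = 0.964). PDE_05002 was low, at 22.1 ± 4.19 FPKM (SD, n = 3) in wild type and 66.9 ± 11.1 in the mutant in glucose. In GlcNAc it had 2.95 ± 0.762 and 8.06 ± 0.376 FPKM, and in the bran medium 15.3 ± 6.31 and 31.6 ± 5.27 FPKM. PDE_09315 varied widely between replicates. In glucose it ranged from 37.3 to 66.1 FPKM in wild type and from 57.9 to 291 FPKM in the mutant, and the groups overlapped. In GlcNAc all 3 wild-type libraries had it listed at 0, and the mutant libraries ranged from 0.70 to 13.8 FPKM. In the bran medium it ranged from 3.92 to 50.8 FPKM in wild type and from 70.3 to 135 FPKM in the mutant.

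The gene models with the nearest locus tags were also examined, 5 on each side of each amylase in the order of the tag numbers. Around Amy15A, all 10 were tested. In glucose 4 were called higher and 1 lower in the mutant, and in GlcNAc 8 higher and 1 lower. In the bran medium 1 was called, and it was lower. Over all gene models tested, 22.8% were called lower in the mutant in glucose, 29.7% in GlcNAc and 13.5% in the bran medium, beside the shares called higher given above for each medium. Of the immediate neighbours, PDE_09416 had group means of at most 1.13 FPKM, and PDE_09418 had between 16.2 and 57.0 FPKM. In wild type in GlcNAc, PDE_09418 averaged 39.7 FPKM, above Amy15A at 10.7 FPKM. PDE_09418 was called lower in the mutant in glucose (log2 difference -1.20 ± 0.0892 SE, adjusted p = 2.04e-08), where Amy15A was higher, and it was called higher in GlcNAc (0.51, adjusted p = 9.35e-05) and not called in the bran medium (0.063, adjusted p = 0.644).

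Around Amy13A, 8 of the 10 neighbours were tested. In the mutant 5 were called higher and 1 lower in glucose, 3 higher and 2 lower in GlcNAc, and 4 higher and 1 lower in the bran medium. PDE_01200, the next lower tag, was called higher in all 3 media, with log2 differences of 1.44, 1.14 and 0.49 in glucose, GlcNAc and the bran medium (adjusted p = 6.92e-07, 5.11e-06 and 0.0257). PDE_01198, chosen after its values were seen, rose from a mean of 14.1 to 303 FPKM in glucose (4.28 ± 0.178 SE, adjusted p = 2.18e-11) and from 7.54 to 76.5 FPKM in GlcNAc (3.18 ± 0.178, adjusted p = 4.98e-10), and differed by 0.53 ± 0.178 (adjusted p = 0.0412) in the bran medium. PDE_01199, the tag between PDE_01198 and PDE_01200, was also named after its values were seen. It was called higher in glucose (3.50, adjusted p = 1.27e-07), GlcNAc (2.59, adjusted p = 1.89e-06) and the bran medium (1.13, adjusted p = 0.014). PDE_01198, PDE_01199 and PDE_01200, the tags next below Amy13A, were thus called higher in every medium, as were 4.1% of all gene models tested. PDE_01202, the next higher tag, was not called in glucose (0.0024, adjusted p = 0.997) and was lower in the bran medium (-0.58, adjusted p = 0.00739). PDE_01206, also chosen after its values were seen, fell from a mean of 166 to 74.6 FPKM in glucose (-1.30 ± 0.348 SE, adjusted p = 0.00444). In GlcNAc PDE_01206 fell from 421 to 35.1 FPKM (-3.59 ± 0.348, adjusted p = 2.41e-07). It was not called in the bran medium (0.13, adjusted p = 0.825).

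**Figure D5:**
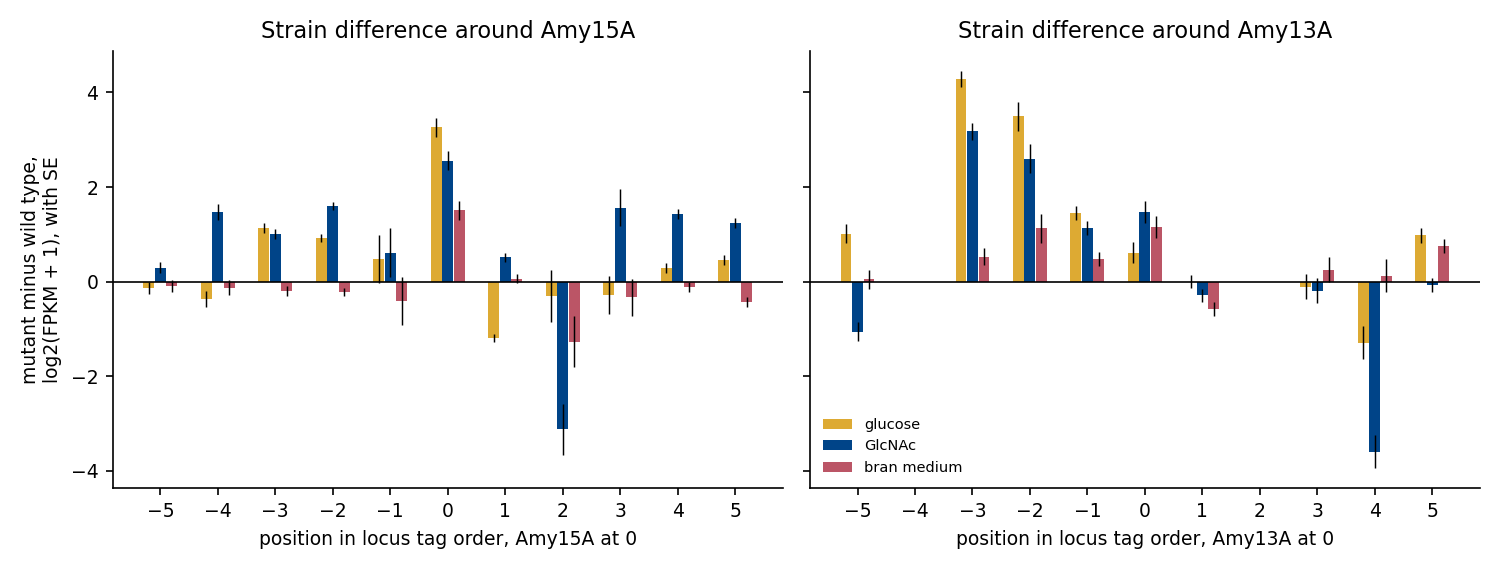
Mutant minus wild type in log2(FPKM + 1), with SE, for Amy15A (left) and Amy13A (right) at position 0 and their 5 neighbours on each side in locus tag order, by medium; positions -4 and 2 on the right were not tested. Amy15A stands above its neighbours in every medium, and on the right the bar at -3 in glucose (4.28) exceeds that of Amy13A (0.61). Also on the right, the bar at 4 in GlcNAc reaches -3.59.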

How the data were processed

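The authors deposited one table of FPKM values, as the file headers name them, with one column for each of the 18 libraries. The labels' protocols describe tag libraries: oligo(dT)-purified mRNA was turned into cDNA, digested with NlaIII and then MmeI, and the short tags were read on an Illumina instrument. How FPKM were made from tags, with which aligner and on which genome build, is not given in the sources used here. Read depth is unknown. Of 5190 low values, 28.6% lay within 0.1 of a whole multiple of their gene's lowest value, where evenly spread values give 20%. Libraries differed in scale and the lowest value need not be a single read, so this share cannot tell whether values moved in whole reads. Read counts were not recovered. No interval or detection limit from counts is given.

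Columns were matched to samples, and samples to groups, by title. Gene models reaching 1 FPKM in 3 or more libraries were kept, and log2(FPKM + 1), which understates changes of low genes, was fitted with limma 3.58.1 in R 4.3.3 (6 group means, eBayes with trend and robust, two-sided, Benjamini-Hochberg over all 8455 gene models). The ratio of the transcripts was compared with exact permutation tests over libraries, with 7 comparisons adjusted together. Scripts were tested on simulated data. Figures were drawn with matplotlib 3.10.9.

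The amylases, neighbours and lists were chosen with earlier results of these data known. Apart from the amylases, the rule for named gene models took the 2 most like each by Pearson correlation and the adjacent locus tags. PDE_01198, PDE_01199 and PDE_01206 fall outside that rule and were named after their values were seen. A list of other starch genes was planned from reference descriptions and is void, since 0 of 9176 IDs matched the 9964 rows of the RefSeq table (assembly ASM172317v3). The alternatives were other pseudocounts, filters, scalings and limma settings, fits to the compared groups alone, a replicate block, and fits without each library in turn.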

Additional observations from a re-analysis of the deposited data

Results flagged for a closer look

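The strain difference of Amy15A was not the same in the 3 media. By the limma test of the difference of differences, it was lower in the bran medium than in glucose (-1.75 log2 units, adjusted p = 0.000115) and than in GlcNAc (-1.05, adjusted p = 0.00433). In these tests, 34.1% and 40.3% of gene models were called lower, and over all gene models strain differences spread less in the bran medium, as given above. Both calls of Amy15A held under every alternative run, with ranges from -1.98 to -1.56 and from -1.29 to -0.71. Against glucose, the strain difference of Amy15A was lower in GlcNAc (-0.71, adjusted p = 0.0431), where 27% of gene models were called lower. This call was lost without any 1 of 11 of the 18 libraries. For Amy13A the strain difference was larger in GlcNAc than in glucose (0.86, adjusted p = 0.0313), where 32.3% of gene models were called higher. This call was lost without any 1 of 7 libraries. The pair thus differed in opposite directions between glucose and GlcNAc, and in both genes that difference was near the threshold.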

How the results depend on the processing

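Amy15A and Amy13A kept their direction in all 26 limma comparisons under every alternative run. Leaving out single libraries changed 22 of 468 calls, and the other settings changed 4 of 258. For Amy13A, mutant against wild type in glucose was 0.41 after median-ratio rescaling and not called. It was called at 0.75 after rescaling to the same total and at 0.88 after quantile normalization. Without single libraries it lay between 0.49 and 0.77. The change of the strain difference of Amy15A between GlcNAc and glucose was -0.61 with a pseudocount of 0.1 and -0.62 after rescaling to the same total, not called in either, and between -0.86 and -0.53 without single libraries. For Amy13A the same quantity was 0.49 after quantile normalization, not called, and between 0.66 and 1.07 without single libraries. The fall of Amy15A in the mutant from glucose to the bran medium was between -0.75 and -0.51 without single libraries. The cause of these changes was not tested. No ratio test changed its call without a single library or with another pseudocount. The 3 comparisons within a medium could not have been called in any of these, because their exact permutation p cannot fall below 0.1. For the average over media, a fit to the compared groups alone is the reported fit and was not run again. With the replicate number as a block (replicate block), no limma call changed, and for instance Amy13A in glucose had an adjusted p of 0.033. In the ratio tests, same-numbered libraries were also paired. The differences of -3.96 (GlcNAc against glucose) and 4.81 (the bran medium against GlcNAc) then had an exact sign-flip p of 0.0729 after adjustment. Both were at the smallest p this test can give with so few pairs, so it could not have called them. The numbers were not shown to pair libraries: same-numbered libraries had correlations of their deviations between -0.107 and 0.181, in 0 of 9 pairs of groups were all over 0.1, and in 0 of 9 did every library correlate best with its own number. Read depth is unknown and limits what can be said of the low GlcNAc values.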
